A study of Mus musculus with 12 samples.

Results

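The 10 genes described here are the cannabinoid receptors and the core enzymes of the endocannabinoid system: Cnr2, Cnr1, Cnrip1, Dagla, Daglb, Napepld, Mgll, Abhd6, Abhd12 and Faah. They were taken by gene symbol, and all 10 were found among the 34102 genes of the deposited count table. Cnr2 was selected on its counts in the cortex libraries, where it had stood out between libraries labelled cKO and control, so its cortex values are given as a description without a test. The other 9 genes were chosen by their function, not by their values.

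The study asked how the splicing regulator SRSF10, an SR-like RNA-binding protein, acts in the developing mouse neocortex and in neural progenitor cells. RNA-seq libraries came from 4 groups of 3. Cortex tissue of C57BL/6 mice carried floxed Srsf10 on both alleles, with the genotype Srsf10 flox /flox Nestin-Cre- in the control group and Srsf10 flox /flox Nestin-Cre+ in the conditional knockout (cKO) group. The Nestin promoter drives Cre in neural progenitors and thus in the cells they give rise to; the labels give neither the age of the mice nor which exons are floxed. Primary neural progenitor cells (NPC) from C57BL/6 cortex were grown in suspension with bFGF and EGF and labelled WT (control) or SRSF10 knockdown. For these cells the labels describe infection with lentivirus at a multiplicity of infection of 30, 12 h after seeding, a change of medium 24 h after infection and RNA extraction 72 h after infection; the labels do not name the virus that the WT cells received. Nothing in the labels says whether replicates came from separate animals or cultures. The p-values thus measure the spread between these samples, which may be partly technical. By counts of the sex-linked genes Xist and Ddx3y, each group held both sexes, so its libraries were not all copies of the same sample.

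Endocannabinoids are lipids that cells make on demand from membrane phospholipids. In the brain, 2-arachidonoylglycerol (2-AG) is made by diacylglycerol lipases in the receiving neuron, travels back across the synapse and acts on the receptor CB1 on the sending terminal, which lowers transmitter release; in the embryo the same system takes part in progenitor proliferation and axon growth. CB2, the product of Cnr2, is best known from immune cells, B cells, macrophages and microglia among them. The second ligand, anandamide, can be released by the NAPE-specific phospholipase D (Napepld) and is cleaved by the fatty acid amide hydrolase (Faah), whereas 2-AG is cleaved by monoacylglycerol lipase (Mgll) and by the serine hydrolases Abhd6 and Abhd12. Cnrip1 encodes a protein that binds the tail of CB1.

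Cnr2 lies on chromosome 4 of the mm10 genome (chr4:135895394-135920207, plus strand, ENSMUSG00000062585), with 2 annotated protein-coding transcripts of 2 exons each that start at 135895394 and 135911818. The second start lies inside the first intron of the longer transcript. Because the results turn on Cnr2, and because the counts sum over both transcripts, the 250 bases before each of its RefSeq starts (GRCm38.p6) are shown together with those before the first RefSeq start of Cnr1. All are on the plus strand and are written 5′ to 3′, with every CG dinucleotide in capitals; CG reads the same on both strands.
Cnr2, chr4:135894939-135895188: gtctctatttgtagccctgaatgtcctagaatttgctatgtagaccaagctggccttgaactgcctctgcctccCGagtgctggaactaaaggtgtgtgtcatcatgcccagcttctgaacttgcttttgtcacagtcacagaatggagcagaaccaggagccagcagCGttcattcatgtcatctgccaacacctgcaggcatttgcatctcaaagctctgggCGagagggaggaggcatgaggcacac
Cnr2, chr4:135911430-135911679: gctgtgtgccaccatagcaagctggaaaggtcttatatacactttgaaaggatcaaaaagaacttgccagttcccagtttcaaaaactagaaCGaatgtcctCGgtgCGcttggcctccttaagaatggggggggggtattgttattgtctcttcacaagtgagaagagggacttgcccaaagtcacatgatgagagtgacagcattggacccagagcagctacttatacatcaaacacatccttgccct
Cnr1, chr4:33924014-33924263: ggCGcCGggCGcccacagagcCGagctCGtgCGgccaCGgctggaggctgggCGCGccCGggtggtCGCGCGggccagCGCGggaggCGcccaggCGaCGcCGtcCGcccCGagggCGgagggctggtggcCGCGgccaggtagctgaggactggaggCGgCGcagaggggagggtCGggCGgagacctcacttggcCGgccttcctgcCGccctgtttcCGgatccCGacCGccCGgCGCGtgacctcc
Each Cnr2 window holds 3 CG dinucleotides, at a GC content of 51.6% for the first start and 46.4% for the second. The Cnr1 window shown holds 36 at a GC content of 79.2%; the windows before its other RefSeq starts hold 28 and 5, at 68.8% and 49.2%. Among 32851 RefSeq promoter windows of the same 250 bases, 92.1% hold at least 1 CG and the median is 6; 37.8% have no more than the 3 of Cnr2, 2.58% have at least the 36 of the first Cnr1 start, and 49.6% have no more than the 5 of its last. Of the 10 genes 8 were matched in the RefSeq table; Dagla and Abhd12 were not. The windows before the starts of the other matched genes ranged from 5 CG dinucleotides, for Cnrip1, to 40, for the second start of Mgll.

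Library totals ran from 26074094 to 36713205 counts. The targeted gene came first as a check of the labels, and it went against them: Srsf10 had 7113, 7119 and 7391 counts in the 3 control cortex libraries and 7296, 6432 and 8207 in those labelled cKO, a log2 fold change of 0.03 (SE 0.08, edgeR adjusted p = 0.917). In NPC it had 6948, 5952 and 6588 counts in control and 6244, 6791 and 5963 in the libraries labelled knockdown, a log2 fold change of -0.05 (SE 0.07, edgeR adjusted p = 0.774). A gene-level count sums over all exons, and reads of the deleted part were not counted separately here, so directions below are those between libraries labelled cKO or knockdown and control. Libraries also differed in ways the groups do not explain. Control cortex replicate 2 and cKO replicate 3 were rich in the choroid plexus transcript Ttr (1194 and 1082 CPM, reads scaled to a common library size), against 2.35 to 100.35 in the other 4 cortex libraries. By Xist and Ddx3y counts, control cortex replicate 1 and cKO replicates 1 and 2 were female and the other 3 cortex libraries male. The summed level of 8 pan-neuronal genes was 9638 to 9889 CPM in control cortex and 1036 to 1142 in control NPC. Most of the NPC sum was Map2. The 8 progenitor genes summed to 425 to 523 and 6263 to 6591 CPM, with Vim and Nes the largest in NPC. Of these 8, 6 were lower in control cortex and 2 higher, Hes5 (16.4 and 4.03 CPM) and Eomes (17.3 and 0.530 CPM). Astrocyte markers summed to 469 to 530 CPM in control cortex and 1969 to 2083 in control NPC. Oligodendrocyte-lineage markers summed to 311 to 333 and 2840 to 2922 CPM.

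Cnr2 was close to absent in 3 of the 4 groups and present in every cortex library labelled cKO. Control cortex libraries held 3, 0 and 5 reads and the libraries labelled cKO held 70, 41 and 67. In NPC the control libraries held 0, 0 and 4 reads and those labelled knockdown 0, 5 and 3. The lowest cortex library labelled cKO stood well above the highest of the other 9 libraries, and the remaining 3 groups overlapped one another. On the scale of CPM with TMM factors the level was 0.0721 ± 0.0676 (SD, n = 3) in control cortex, 1.69 ± 0.472 in cortex labelled cKO, 0.0458 ± 0.0793 in control NPC and 0.0927 ± 0.0849 in NPC labelled knockdown.

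**Figure D1:**
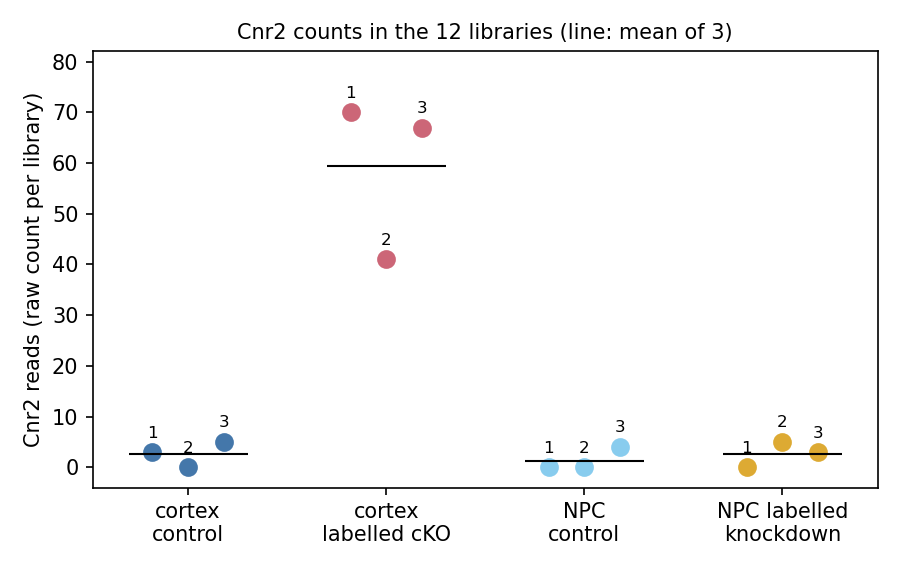
Raw Cnr2 counts (y axis, reads per library) in the 12 libraries of the 4 groups (x axis); each point is a library with its replicate number and each line the mean of 3. The 3 cortex libraries labelled cKO lie between 41 and 70 reads and all others at 5 or fewer.

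The fitted log2 fold change of Cnr2 in cortex was 4.44 (SE 0.66, 95% interval 2.99 to 5.90), about 21.8-fold. The ratio of the summed counts per library total, 178 reads against 8, was 22.85 with an exact binomial 95% interval of 11.35 to 53.76, which covers counting error only. Because Cnr2 was chosen on these counts, its size may be overstated. Neither interval is a test, and neither has its stated coverage. A library at 0 allows a level of up to 3 reads, which is 0.0918 CPM in control cortex replicate 2 and 0.108 to 0.116 CPM in the 3 NPC libraries at 0. With 8 reads in the control group, Cnr2 passed the filter on low counts only through the cKO group. The size rests on few control reads: it was 5.19 on the log2 scale without control replicate 3, which holds 5 of the 8 reads, and 3.87 without the pair of Ttr-rich libraries. In NPC the gene did not pass the filter, and no difference was detectable there at this depth.

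Even in cortex labelled cKO the level of Cnr2 was low. Per kb of exon, which allows levels of different genes to be compared, it stood at 0.425 ± 0.119 CPM (SD, n = 3), above 42.5% of the 24629 genes with a known exon length and a count in any library. The level in control cortex, 0.0181 CPM per kb, was above 20.7% of them. Cnr1 was 128 to 213 times higher than Cnr2 per kb in the 3 libraries labelled cKO.

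Immune markers were read beside Cnr2 because CB2 is known from immune cells. The summed level of 14 microglial genes was 126 to 153 CPM in control cortex and 146 to 154 CPM in cortex labelled cKO, ranges that overlap. None of its 13 tested members passed the test (median log2 fold change 0.03, against 0.00 over all genes tested). Cx3cr1, a chemokine receptor of microglia, averaged 16.6 and 17.2 CPM, and Csf1r, the receptor for their survival factor, 22.8 and 23.1 CPM; Aif1 was at 0 in all 12 libraries. The 10 macrophage and myeloid genes summed to 27.4 to 58.4 CPM in control and 47.9 to 58.1 CPM in cKO, with overlap and 0 of 7 tested members called. Of the 7, 6 had values above 0, with a median log2 fold change of 0.37; Mrc1, a mannose receptor of border macrophages, averaged 13.4 and 18.7 CPM and the scavenger receptor gene Cd163 1.23 and 2.63 CPM. The part of these cells in the Cnr2 value was not tested. The 8 B cell genes summed to 7.94 to 10.6 CPM in control and to 5.01 to 7.25 CPM in cKO, lower without overlap and with 0 of 2 called; most of that sum was the complement receptor Cr2, at 8.55 and 5.26 CPM. The 8 T and NK cell genes summed to 0.52 to 0.858 and 0.536 to 1.17 CPM. In NPC the microglial genes summed to 24.6 to 28.3 CPM, with Cx3cr1 at 0 in every library and Csf1r at 0.126 CPM in control and 0.0914 CPM in the libraries labelled knockdown.

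Cnr2 is a close neighbour of the gene the study targeted: both genes are read from the plus strand, with a gap of 25.5 kb from the last base of Srsf10 to the first of Cnr2, and Pnrc2 lies between them on the minus strand. Genes of the count table within 250 kb were therefore read in the same libraries. Of the 9 described here that were tested in cortex, Srsf10 among them, none passed the test, against 0.171% of all 15781 genes tested (27 genes: 6 higher and 21 lower). Fuca1, a lysosomal fucosidase that starts 0.5 kb past the end of Cnr2 on the same strand, had 1388, 1072 and 1270 reads in control and 1137, 1121 and 1217 in cKO, a log2 fold change of -0.08 (SE 0.09). Pnrc2, a coactivator that also takes part in mRNA decay, was at -0.13 (SE 0.09), and Myom3, a sarcomere protein gene, at 0.31 (SE 0.25). The thioesterase Lypla2 was at -0.18 (SE 0.10, edgeR adjusted p = 0.543), without overlap between groups. The other 4, Pithd1, Rpl11, Id3 and the pseudogene Gm12989, lay between -0.10 and 0.11. Ifnlr1, an interferon receptor gene with 3 to 19 reads per cortex library, and the pseudogene Gm12988, with 1 to 6, were too low to be tested.

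**Figure D2:**
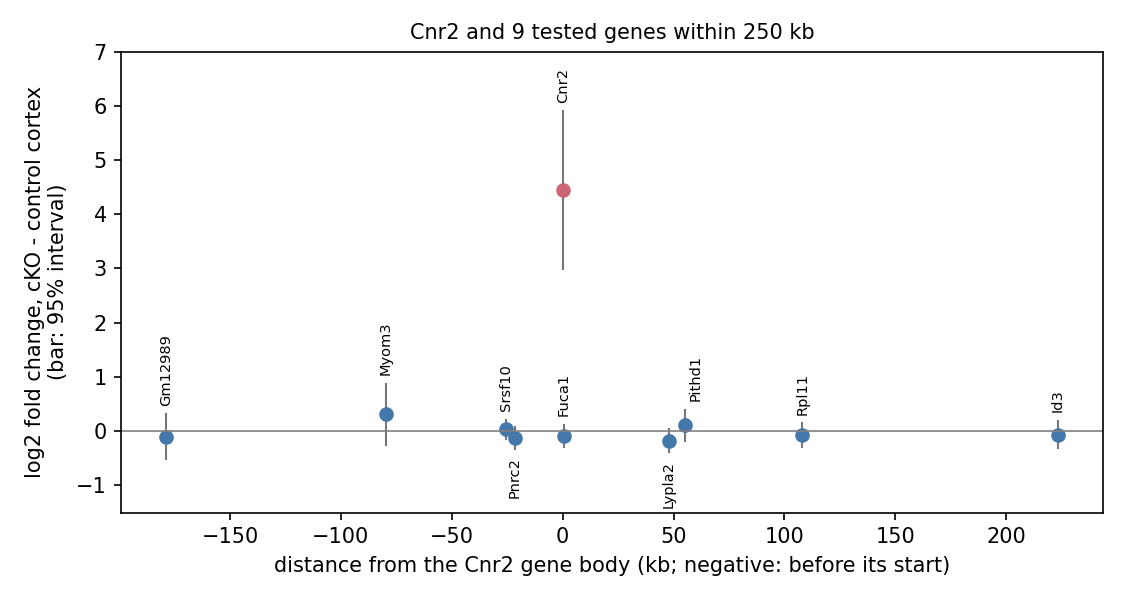
Log2 fold change of cortex labelled cKO against control (y axis, bars 95% intervals) for Cnr2 and 9 tested genes within 250 kb, by distance from Cnr2 in kb (x axis, negative before its start). Cnr2 lies at 4.44, and the 9 others between -0.18 and 0.31. The bar of Cnr2 is a description only, as the gene was chosen on these counts.

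Cnr1, which encodes CB1, was the most abundant of the 10 genes per length in cortex and showed no change that passed the test. Its levels were 445, 500.3 and 513 CPM in control cortex and 435, 404 and 434 CPM in cortex labelled cKO. The groups did not overlap, as for 17.6% of all genes tested in cortex. This is a log2 fold change of -0.19 (SE 0.07, edgeR adjusted p = 0.376), and its 95% interval runs from -0.36 to -0.03. In NPC the levels were 26.3, 23.2 and 26.8 CPM in control and 22.2, 20.6 and 24.5 CPM in the libraries labelled knockdown, which overlap, at a log2 fold change of -0.19 (SE 0.10, edgeR adjusted p = 0.359). Each NPC library labelled knockdown was below the control with its number. The cortex and NPC effects on Cnr1 differed by -0.01 on the log2 scale (95% interval -0.27 to 0.25, edgeR adjusted p = 1.0).

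CB1 is dense on cholecystokinin (CCK) interneurons of the cortex, so neuronal marker sums were read beside Cnr1. The 10 genes listed for CCK interneurons summed to 363 to 423 CPM in control cortex and 313 to 366 CPM in cKO, with overlap. They include Gad1, Gad2 and Slc32a1 (91.7, 69.0 and 27.3 CPM in control), which inhibitory neurons in general express. The sum is thus not a measure of CCK interneurons alone. The 10 markers of ventrally derived interneurons summed to 432 to 446 CPM in control and 356 to 360.3 CPM in cKO, and the 6 upper-layer markers to 2359 to 2503 and 2065 to 2269 CPM, both without overlap. Log2 fold changes were below 0 for 8 of the 10 genes of the CCK list (median -0.42), the sum also holding Nr2f2, at 38.5 and 58.4 CPM. They were below 0 for 8 of the 10 ventral markers (median -0.35) and 5 of the 6 upper-layer markers (median -0.17). The median over all genes tested was 0.00. Not all neuronal lists were lower. The 6 deep-layer markers had 3 values below 0 (median -0.02), and the 8 pan-neuronal genes had 4 (median -0.00078). Oligodendrocyte-lineage markers, which are not neuronal, were below 0 for 7 of 8 (median -0.23, 1 called). No member of these neuronal lists passed the test in cortex, and their part in the Cnr1 value was not tested. In tissue, fewer cells of a type and less RNA per cell cannot be told apart.

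Cnrip1, the CB1-binding protein gene, lay at 134, 114 and 128 CPM in control cortex and 135, 130.1 and 134 CPM in cKO, with overlap (log2 fold change 0.09, SE 0.07). Its NPC levels were 17.6, 19.8 and 19.4 CPM in control and 17.5, 20.9 and 18.5 CPM in the knockdown-labelled group (-0.01, SE 0.10). It shares 199 exon bases with Plek on the opposite strand, and whether reads were counted by strand is not stated in the labels.

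The enzymes that make the ligands did not pass the test either. Dagla, the main neuronal 2-AG synthase, varied little between cortex libraries, with 52.8, 53.5 and 51.7 CPM in control and 55.3, 53.2 and 54.4 CPM in cKO (0.05, SE 0.08), which overlap. In NPC it was 18.5, 20.4 and 20.1 CPM in control and 18.1, 19.5 and 17.0 CPM in the libraries labelled knockdown, lower in 3 of 3 pairs by number but at only -0.12 (SE 0.09). Daglb, the second diacylglycerol lipase, had 21.0, 16.4 and 17.2 CPM in control cortex and 12.5, 19.0 and 15.3 CPM in cKO, where replicate 1 was lowest (-0.22, SE 0.16). NPC levels of Daglb were 28.7, 31.2 and 28.0 CPM in control and 30.3, 37.8 and 31.7 CPM in the knockdown-labelled group, higher in 3 of 3 pairs (0.17, SE 0.10). Of its exon bases 2309 also belong to Rac1 on the opposite strand, a far more abundant gene, which makes the Daglb values uncertain. Napepld, the anandamide-releasing phospholipase, stood at 2.46, 3.98 and 2.63 CPM in control cortex and 3.96, 3.55 and 3.83 CPM in cKO, where 1 control library is the highest of all 6 (0.33, SE 0.24). NPC libraries had 4.74, 4.89 and 5.25 CPM of Napepld in control and 7.68, 5.86 and 5.09 CPM under the knockdown label, the highest being replicate 1 (0.31, SE 0.19).

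Among the enzymes that end the signal, Mgll varied most between NPC replicates, and its call depended on how replicates were treated. Control NPC held 14.4, 7.27 and 7.76 CPM and the libraries labelled knockdown 20.6, 8.16 and 10.1 CPM, replicate 1 being high in both groups. The groups overlap and the log2 fold change of 0.39 (SE 0.40) did not pass the test (edgeR adjusted p = 0.653). NPC replicates with the same number deviated together across genes, so the fit with the replicate number as a block was read beside it. There Mgll rose by 0.36 (SE 0.11, 95% interval 0.13 to 0.59, edgeR adjusted p = 0.0260), higher in 3 of 3 pairs, by 0.52, 0.17 and 0.38 on the log2 scale. That fit called 24.7% of all 14258 genes tested in NPC, so 1 call among 9 genes is no more than its background. The Mgll call was absent without the replicate 1 pair (0.26, adjusted p = 0.137), without the replicate 3 pair (0.36, adjusted p = 0.145) and with DESeq2 on the same block (0.36, adjusted p = 0.119). In cortex Mgll had 34.2, 28.9 and 26.0 CPM in control and 27.5, 31.6 and 33.6 CPM in cKO, with overlap (0.06, SE 0.12).

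**Figure D3:**
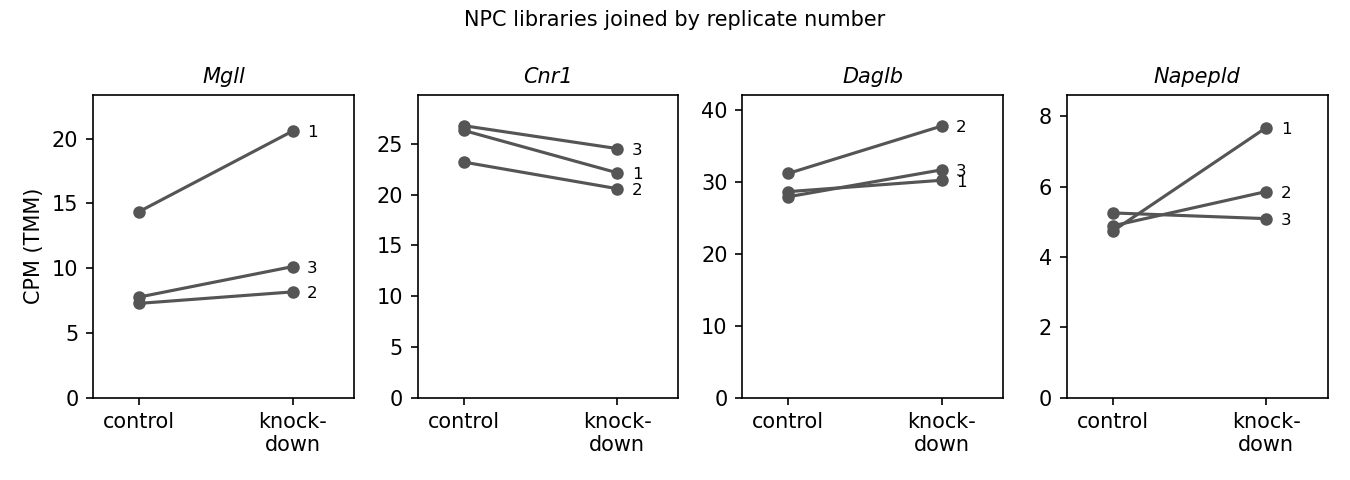
NPC levels in CPM with TMM factors (y axis, from 0) of Mgll, Cnr1, Daglb and Napepld in control libraries and those labelled knockdown (x axis), with lines joining libraries of the same replicate number. Mgll is higher at the right end of 3 of 3 lines and Cnr1 lower at 3 of 3.

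The remaining hydrolases differed between groups by less than their replicates did. Abhd12 had 91.3, 86.4 and 90.4 CPM in control cortex and 86.3, 88.5 and 88.8 CPM in cKO (-0.02, SE 0.07). In NPC its levels were 54.7, 51.5 and 50.8 CPM against 52.9, 52.3 and 50.5 CPM under the knockdown label (-0.02, SE 0.07). Its 95% intervals, -0.17 to 0.12 in cortex and -0.18 to 0.13 in NPC, are the narrowest of the 9 genes. Abhd6 had 18.2, 15.5 and 19.3 CPM in control cortex and 18.8, 20.4 and 14.6 CPM in cKO (0.03, SE 0.14). Its NPC values were 38.6, 33.7 and 37.3 CPM in control and 32.3, 33.5 and 39.7 CPM in the knockdown-labelled libraries (-0.07, SE 0.10). Faah, which cleaves anandamide, had 33.1, 31.4 and 29.2 CPM in control cortex and 28.3, 30.2 and 24.2 CPM in cKO, with overlap (-0.18, SE 0.10). Its NPC levels were 38.7, 37.6 and 44.4 CPM and 37.8, 40.1 and 51.0 CPM, replicate 3 being highest in both groups (0.08, SE 0.13).

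Across the 9 genes other than Cnr2, 0 passed edgeR's test in cortex and 0 in NPC, where 1.89% of all genes tested did (270 genes: 50 higher and 220 lower). At an unadjusted p under 0.05, 1 of the 9 (Cnr1) was reached in cortex and 0 in NPC; 1719 and 2616 genes in all were. DESeq2 called none of the 9 either. Their median log2 fold change was 0.03 in cortex and -0.01 in NPC, against 0.00 over all genes in both. None of the 9 had NPC groups that did not overlap, which 23.2% of all genes tested there had. The difference between the cortex and NPC effects was called for 0 of the 9, against 1.46% of 16569 genes, and for 0 of the 9 with the replicate block, against 3.65%. It was widest for Daglb at -0.41 (95% interval -0.87 to 0.05).

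**Figure D4:**
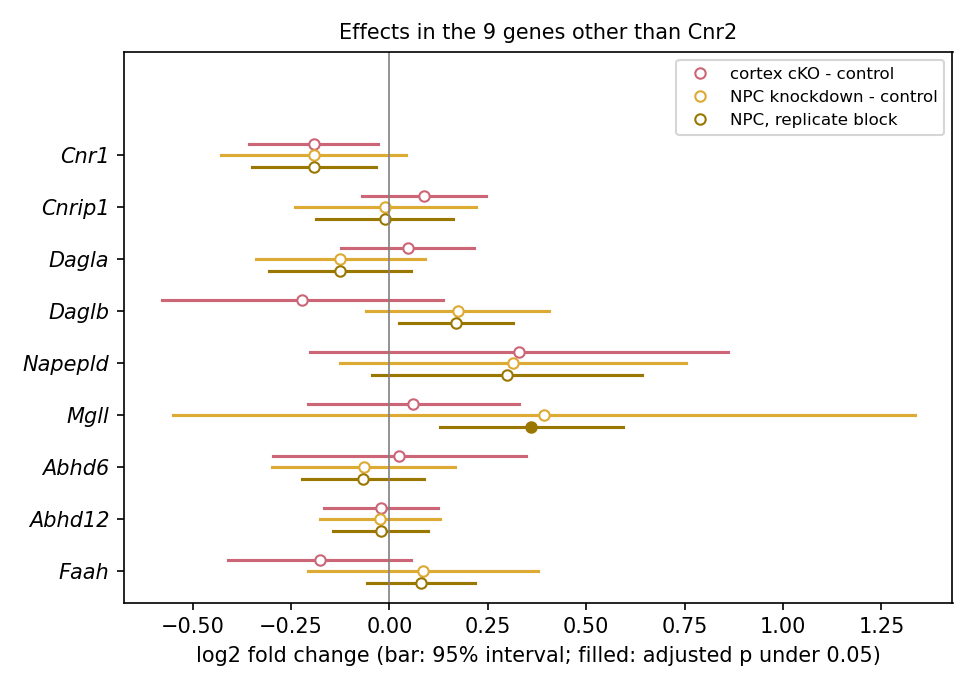
Log2 fold changes (x axis, bars 95% intervals) of the 9 genes other than Cnr2 (y axis) in cortex, in NPC and in NPC with the replicate block; filled points passed an adjusted p of 0.05. The only filled point is Mgll with the replicate block, at 0.36.

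For each of the 9 genes other than Cnr2, the fitted difference between the 2 systems was larger than that between the groups within them. The margin was small for Faah and Napepld. Between control cortex and control NPC, 9 of the 9 tested genes passed the test, as did 78.7% of all 15676 genes tested; brain tissue, culture and preparation cannot be told apart here. Cnr1 was higher in control cortex by 4.28 on the log2 scale (SE 0.10, edgeR adjusted p = 7.49e-10), about 19.4-fold, Cnrip1 by 2.75 (SE 0.10), Mgll by 1.63 (SE 0.25), Dagla by 1.45 (SE 0.09) and Abhd12 by 0.80 (SE 0.08). Abhd6 was lower in control cortex, at -1.02 (SE 0.12), as were Napepld at -0.69 (SE 0.24), Daglb at -0.66 (SE 0.12) and Faah at -0.34 (SE 0.10). The calls for Napepld and Faah depended on single libraries. Napepld lost its call without control cortex replicate 1 or 3 or control NPC replicate 2 or 3 (adjusted p 0.0536 to 0.0785), and Faah without control NPC replicate 3 (adjusted p = 0.0534). Cnr2 was not tested in this comparison.

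Per kb of exon, the order of levels in control cortex was Cnr1 (75.4 ± 5.60 CPM per kb, SD, n = 3), Abhd12 (31.7 ± 0.923), Cnrip1 (31.3 ± 2.46), Dagla (9.17 ± 0.159), Abhd6 (7.47 ± 0.844), Mgll (5.85 ± 0.818), Faah (3.98 ± 0.250), Daglb (1.90 ± 0.256), Napepld (0.764 ± 0.210) and Cnr2 (0.0181 ± 0.0170). Abhd12 and Cnrip1 overlapped in that order, as did Abhd6 and Mgll; the other neighbours did not. In control NPC the order was led by the 2-AG hydrolases Abhd12 (18.6 ± 0.739) and Abhd6 (15.5 ± 1.07). Faah (5.13 ± 0.472) and Cnrip1 (4.73 ± 0.293), which overlapped, came next, before Cnr1 (3.95 ± 0.302), Dagla (3.42 ± 0.179) and Daglb (3.06 ± 0.179), of which the last 2 overlapped. Mgll (1.93 ± 0.779), Napepld (1.25 ± 0.0674) and Cnr2 (0.0115 ± 0.0199) were lowest. Cnr1 per kb thus stood above 98.0% of 24629 genes in control cortex and above 65.2% in control NPC. By mean level the order in cortex labelled cKO differed from its control in 1 exchange, Cnrip1 above Abhd12, and that in NPC labelled knockdown in 1, Daglb above Dagla.

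**Figure D5:**
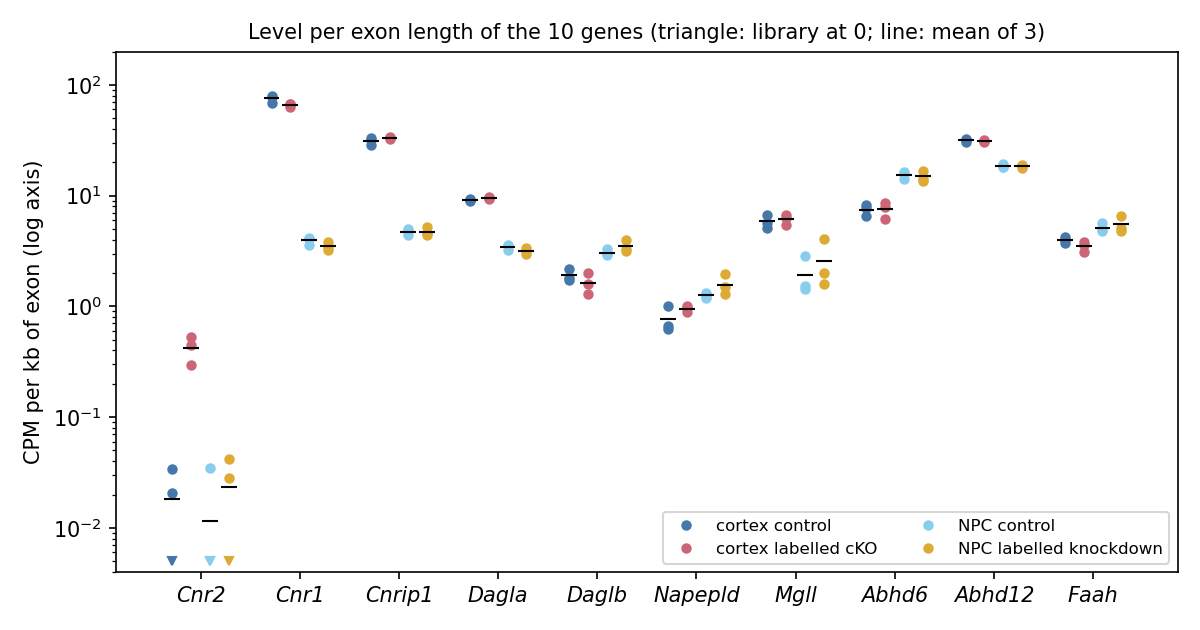
Level per exon length (y axis, CPM per kb, log axis) of the 10 genes (x axis) in the 12 libraries, coloured by group; lines are means of 3 and triangles mark libraries at 0. Cnr1 reaches 69.1 to 79.6 CPM per kb in control cortex, and Cnr2 exceeds 0.29 only in cortex labelled cKO.

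The balance between paired enzymes also differed between the systems. The ratio of Dagla to Daglb per kb was 4.88 ± 0.627 (SD, n = 3) in control cortex and 1.12 ± 0.0674 in control NPC, without overlap. The ratio of Mgll to Abhd6 per kb was 0.791 ± 0.142 in control cortex and 0.124 ± 0.0431 in control NPC, so Abhd6 was the higher of the pair in all 6 libraries. Neither ratio separated the cKO group from its control: they were 5.99 ± 1.36 and 0.824 ± 0.214 in cortex labelled cKO. In NPC labelled knockdown they were 0.913 ± 0.0716, below every control value, and 0.176 ± 0.104. These ratios are descriptions, and those with Daglb carry the uncertainty of its overlap with Rac1.

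The wider pathway was read from 6 lists of 65 symbols in all (other lipid receptors, other routes to anandamide, enzymes upstream or parallel to 2-AG synthesis, other breakdown and oxidation, lipid carriers, and receptor signalling). Of these, 55 were found by symbol in the table and the other 10 were not analysed here. In cortex 0 of 42 tested genes passed edgeR's test, against 0.171% of all genes tested, and 5 (11.9%) reached an unadjusted p under 0.05, against 10.9% of all genes. Their median log2 fold change was 0.04, against 0.00 over all genes. Among the most abundant of each list, the receptor Ppara was at 0.16 (SE 0.34), the glycerophosphodiesterase Gde1 at -0.11 (SE 0.08), the phospholipase C genes Plcg1 at -0.07 (SE 0.07) and Plcb1 at 0.03 (SE 0.07), the hydrolase Abhd2 at 0.11 (SE 0.12) and the adenylyl cyclase Adcy1 at 0.04 (SE 0.10). Abhd4, a lipase of an alternative route to anandamide, was at 0.32 (SE 0.08, edgeR adjusted p = 0.170), and the lipid carriers Fabp5 and Fabp7 were at -0.21 (SE 0.07) and -0.20 (SE 0.07).

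In NPC 0 of 43 tested genes of those lists passed edgeR's test without the block, against 1.89% of all genes tested, and 11 (25.6%) reached an unadjusted p under 0.05, against 18.3% of all genes. Their median log2 fold change was -0.09, against 0.00 over all genes. With the replicate block 14 did, 2 higher and 12 lower, which is 32.6% of the 43 against the 24.7% of all genes that this fit called. Lower with the block were Alox5, a lipoxygenase, by 0.95 (SE 0.13, adjusted p = 0.000198), and Lpin1, a phosphatidate phosphatase that makes diacylglycerol, by 0.59 (SE 0.08, adjusted p = 0.000177). Alox5 fell from 13.3 ± 0.860 to 7.03 ± 1.96 CPM and Lpin1 from 124 ± 4.64 to 84.2 ± 19.4 CPM (SD, n = 3). The G protein genes Gnao1 (-0.46) and Gnaz (-0.51), the arrestin Arrb2 (-0.40), Plcb1 (-0.29), the triglyceride lipase Pnpla2 (-0.28), Gde1 (-0.23), Abhd4 (-0.19) and Ddhd1 (-0.18) were also lower. Higher were Gprasp1, whose protein sorts receptors to lysosomes, by 0.25 (SE 0.06) and Fabp5 by 0.20 (SE 0.05). The same block, which called 24.7% of all genes tested, called 4 of the neighbours of Cnr2 in NPC. Fuca1 (-0.38, adjusted p = 0.000162), Lypla2 (-0.46, adjusted p = 0.000174) and Id3, an inhibitor of bHLH factors (-0.20, adjusted p = 0.0104), were lower and Pnrc2 (0.16, adjusted p = 0.0317) was higher. Srsf10, Pithd1, Rpl11 and Gm12989 were tested there and not called. Whether the 4 calls are particular to this region was not tested. Without the block none of the 4 called genes passed (edgeR adjusted p 0.145 to 0.199).

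The genes most like Cnr2 over the 12 libraries were Fasl, Cdh17, Gm17382, Xpnpep2 and Gm13986, by the root mean square difference of log2 CPM values centred on each gene's mean. That difference was 0.840 for Fasl, the nearest of 16569 genes, which averaged 0.271 CPM in control cortex and 1.25 CPM in cortex labelled cKO. All 5 were low genes, at most 1.25 CPM in any group mean. Cnr1 had near matches: Mycn at 0.139, Foxo6 at 0.154, Mapkapk5 at 0.165, Tiam2 at 0.168 and Fam110b at 0.170. These shared its high level in cortex and low level in NPC, Mycn with 83.7 and 4.55 CPM in the control groups. These likenesses are descriptions over 12 libraries and carry no test.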

How the data were processed

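RNA-seq of 12 mouse libraries was read from a table of raw counts per gene, which the authors deposited; HISAT2 and the mm10 build are named in the submitters' processing notes, and the counting program, annotation and use of strand are not named there. Of 34102 genes, 34065 had identifiers in GENCODE mouse release 21, which gave exon lengths, positions and overlaps; promoter sequences came from RefSeq (GRCm38.p6). Counts were scaled by TMM factors and tested with edgeR 4.0.16 (filterByExpr, quasi-likelihood test, Benjamini-Hochberg adjustment over all genes tested, threshold 0.05) in R 4.3.3: 6 libraries per comparison, all 12 for the difference between effects. Scripts were tested on simulated data. Levels are CPM with TMM factors, per kb of merged exon where genes are compared; likeness used a prior count of 2. Totals of 26074094 to 36713205 counts set the counting error.

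The genes, lists and comparisons were chosen with earlier results of these data known. The text names the 10 genes, Srsf10 and table genes within 250 kb of Cnr2 with reads in every cortex library. It also names list members past the threshold (up to 4 with the smallest adjusted p per list and comparison) or else the 2 most abundant. The 5 genes most like Cnr2 and Cnr1 are named too. Cx3cr1, Csf1r, Aif1, Cr2, Mrc1, Cd163 and Lyz2 were named after their values were seen. Cell type lists were read by summed CPM. A few genes that this rule takes in are not reported here.

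Groups share replicate numbers in the labels. Deviations of same-numbered NPC libraries from their group means correlated over genes at 0.48, 0.50 and 0.44, and in cortex at 0.02, -0.16 and -0.02. The numbers thus paired the NPC libraries and not those of cortex. Other settings tried were DESeq2 1.42.0, RLE size factors, a fit without the count filter, a fit of all 12 libraries, the replicate block, sex as a covariate, no libraries above 1000 CPM of Ttr, and each library left out; leaving out pairs and DESeq2 within the NPC block were added after seeing the data.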

Additional observations from a re-analysis of the deposited data

Results flagged for a closer look

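Effects in cortex and in NPC differed for 2 of the marker genes by edgeR's test of the difference itself, which called 1.46% of all genes. They were 1 of 8 pan-neuronal and 1 of 6 vessel genes tested. No gene of the other cell type lists was called without the block, and whether the marker genes exceed the share over all genes was not tested. Syt1, a synaptic vesicle protein gene, fell in NPC labelled knockdown by 1.20 on the log2 scale (SE 0.20, adjusted p = 0.0379), from 3.40 to 1.49 CPM, and the difference was 1.17 (SE 0.16, adjusted p = 0.00358). Flt1, a receptor for vascular growth factors, fell there by 1.15 (SE 0.20, adjusted p = 0.0387), and the difference was 1.24 (SE 0.27, adjusted p = 0.0433). The replicate block called 3.65% of 16569 genes for this difference, against 1.46% without it. With the block the difference also passed for Prox1, an interneuron and progenitor factor, at 0.84 (SE 0.20, adjusted p = 0.0489). Prox1 is named because it was also called in NPC without the block. The blocked fit further called 1 gene with a value below 0 in each of 5 lists, not named here. These were the CCK, ventral interneuron, deep-layer, astrocyte and oligodendrocyte-lineage lists. In the pathway lists the blocked fit called the difference for Abhd4 at 0.50 (SE 0.10, adjusted p = 0.0215), Alox5 at 2.09 (SE 0.49, adjusted p = 0.0437), Lpin1 at 0.70 (SE 0.16, adjusted p = 0.0405), Gnaz at 0.66 (SE 0.13, adjusted p = 0.0230) and Fabp5 at -0.41 (SE 0.09, adjusted p = 0.0329). That is 5 of 48 list genes tested. Alox5 was at 0.140 and 0.321 CPM in the cortex groups, too low to be tested there on its own.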

How the results depend on the processing

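Of 486 recomputed values of the 9 genes other than Cnr2, 440 kept their sign and their side of the threshold and 38 changed sign without passing in either setting. Another 5 lost a call (Napepld and Faah between systems), 3 gained one (Mgll in 2 blocked fits, and Daglb at 0.21 with an adjusted p of 0.0241 in the NPC block without the replicate 1 pair) and 0 reversed. Cnr2 in cortex ran from 3.87 to 5.19 on the log2 scale over all its settings and from 3.92 to 5.19 over the libraries left out. RLE size factors moved the median of all genes by at most 0.0119.

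The number of genes called was less steady. In cortex 27 became 156 with no count filter, 332 with DESeq2, 49 in a fit of all 12 libraries, 12 with sex as a covariate and 1 with the replicate block, and leaving out libraries gave 0 (without cKO replicate 1) to 28, with 1 without cKO replicate 3. In NPC 270 became 1021 with DESeq2, 654 in a fit of all 12 libraries and 3522 with the replicate block, whose pairing is described with the processing. Leaving out libraries gave 47 to 304. Within the block, DESeq2 called 2437 and leaving out each pair gave 1636, 2170 and 4376. For the difference between effects 242 became 770 with DESeq2 and 604 with the replicate block, and leaving out libraries gave 98 to 275. Between systems the count stayed at 12003 to 13352. The cause of these shifts was not tested. Cnr2 in NPC, at 0 to 5 reads, is limited by depth.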
